A study of Homo sapiens and Mus musculus with 160 samples.

Results

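The mRNAs described here come from 9 genes for very large proteins of the cytoskeleton: PLEC, MACF1 and DST of the plakin family, FLNA, SPTAN1, SPTBN1, TLN1, IQGAP1 and AHNAK. They were taken by gene symbol, ignoring case, from deposited tables of RNA half-lives that list 18165 genes for human K562 cells and 17985 genes for mouse NIH-3T3 cells, and all 9 were found in every table. K562 is a human leukaemia line that carries erythroid traits, and NIH-3T3 is a mouse line of embryonic fibroblasts. Neither had a treatment other than 4-thiouridine, a uridine analog built into new RNA, which labelled the cells for 0, 15, 30, 60 or 120 minutes. RNA was then read from whole cells and 4 parts of them: chromatin, the nucleus, the cytoplasm and polysomes. Of 160 samples, 50 untreated K562 and 50 untreated NIH-3T3 samples stand behind the values, in 2 replicate time courses per line. The other 60, from cells with shRNAs, were not analysed here. The members were chosen by the kind of protein they encode, with half-lives of these tables already known. Which half-lives weighed in that choice is not recorded, so all are counted as used, and levels within a line are a description with no test.

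Cytolinkers and scaffolds tie the filaments of a cell to each other and to its membranes. Plakins connect intermediate filaments, microtubules and actin. Filamins and spectrins crosslink actin, talin joins integrins to actin at focal adhesions, and IQGAP proteins gather signalling proteins on actin. They are very large proteins made in the cytosol, without a signal sequence for the endoplasmic reticulum (ER).

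In the GENCODE release 29 annotation (GRCh38), the longest complete coding transcript of the 9 genes encodes 7592 amino acids for MACF1, 7461 for DST, 5890 for AHNAK, 4684 for PLEC, 2647 for FLNA, 2541 for TLN1, 2498 for SPTAN1, 2366 for SPTBN1 and 1657 for IQGAP1. The median over all 17720 coding genes of the human tables was 456. The genes themselves differ far more in length and build. DST (chromosome 6, 56457987 to 56954628, minus strand) covers 497 kb and MACF1 (chromosome 1, 39081316 to 39487177, plus strand) 406 kb, with 98 and 101 exons. SPTBN1 (chromosome 2, 54456285 to 54671445, plus strand) covers 215 kb, and IQGAP1 (chromosome 15, 90388218 to 90502243, plus strand) 114 kb, each with 38 exons. SPTAN1 (chromosome 9, 128552558 to 128633662, plus strand) and TLN1 (chromosome 9, 35696948 to 35732395, minus strand) have 57 exons in 81.1 and 35.4 kb. PLEC (chromosome 8, 143915147 to 143976734, minus strand) has 32 exons in 61.6 kb, and FLNA (chromosome X, 154348524 to 154374638, minus strand) 48 exons in 26.1 kb. AHNAK (chromosome 11, 62433542 to 62556235, minus strand) has 5 exons, and 1 of them holds 98.1% of its coding sequence. Uridine, the base that carries the label, made up 13.3% of the PLEC coding sequence (rank 17253 of 17720), against a median of 21.5% over all coding genes. The other members lay between 16.9% for FLNA and 24.0% for DST. Protein-coding neighbours with values of their own overlapped 2 members, WDR34 with SPTAN1 by 2 bases and CREB3 with TLN1 by 61 bases, both on the opposite strand.

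Each value is the posterior mode of the authors' fit in minutes, given for replicate 1 and then replicate 2, with the authors' 95% credible interval where an interval is named. The number of reads behind a value is unknown here. All 6 kinds of half-life were present for all members in all 4 tables, and all 216 modes lay inside their intervals. All 8 erythroid marker genes had a whole-cell half-life in both K562 tables and none did in NIH-3T3. The fibroblast markers had one for 2 of 8 genes (COL1A2 and FN1) in K562 and 8 of 8 in NIH-3T3. Markers were matched by symbol, so an erythroid gene with no mouse gene of that name could have no value in NIH-3T3. For some kinds of half-life most members shifted between replicates in the direction of the median gene, and some members moved much further. For others they did not. In K562 the chromatin half-life was higher in replicate 2 for 3 members and lower for 4, with a median fold of 1.12 over all genes. The cytoplasmic half-life there was higher for 5 and lower for 4, with a median fold of 0.889 over all genes. In NIH-3T3 the export half-life in replicate 2 was 0.108 times that in replicate 1 for Iqgap1 and 0.155 times for Flna. In NIH-3T3 the chromatin half-life of all 9 members was higher in replicate 2, with a median fold of 1.37 over all genes, and the export half-life of 8 of 9 was lower, with a median fold over all genes of 0.684. In K562 the polysome loading half-life of 8 of 9 was higher in replicate 2, with a median fold of 1.8 over all genes.

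Within K562 the mRNAs were long-lived in the nuclear fraction and short-lived in the cytoplasmic one. Their median nuclear half-life was 460 and 520 minutes, against 73 and 85 minutes over all genes. Their median cytoplasmic half-life was 15 and 20 minutes, against 86 and 76 minutes over all genes. Nuclear exceeded cytoplasmic half-life, with intervals apart in both replicates, for 9 of 9 members and for 24.2% of 12251 genes, and it was the shorter one for 0 members and 26.4% of genes. In NIH-3T3 it was longer for 9 of 9 members and 51.8% of 11806 genes, and shorter for 0 members and 5.73% of genes. The medians of the members in NIH-3T3 were 300 and 290 nuclear minutes and 5.4 and 4.4 cytoplasmic minutes, against 77 and 79 nuclear and 37 and 36 cytoplasmic minutes over all genes.

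**Figure D1:**
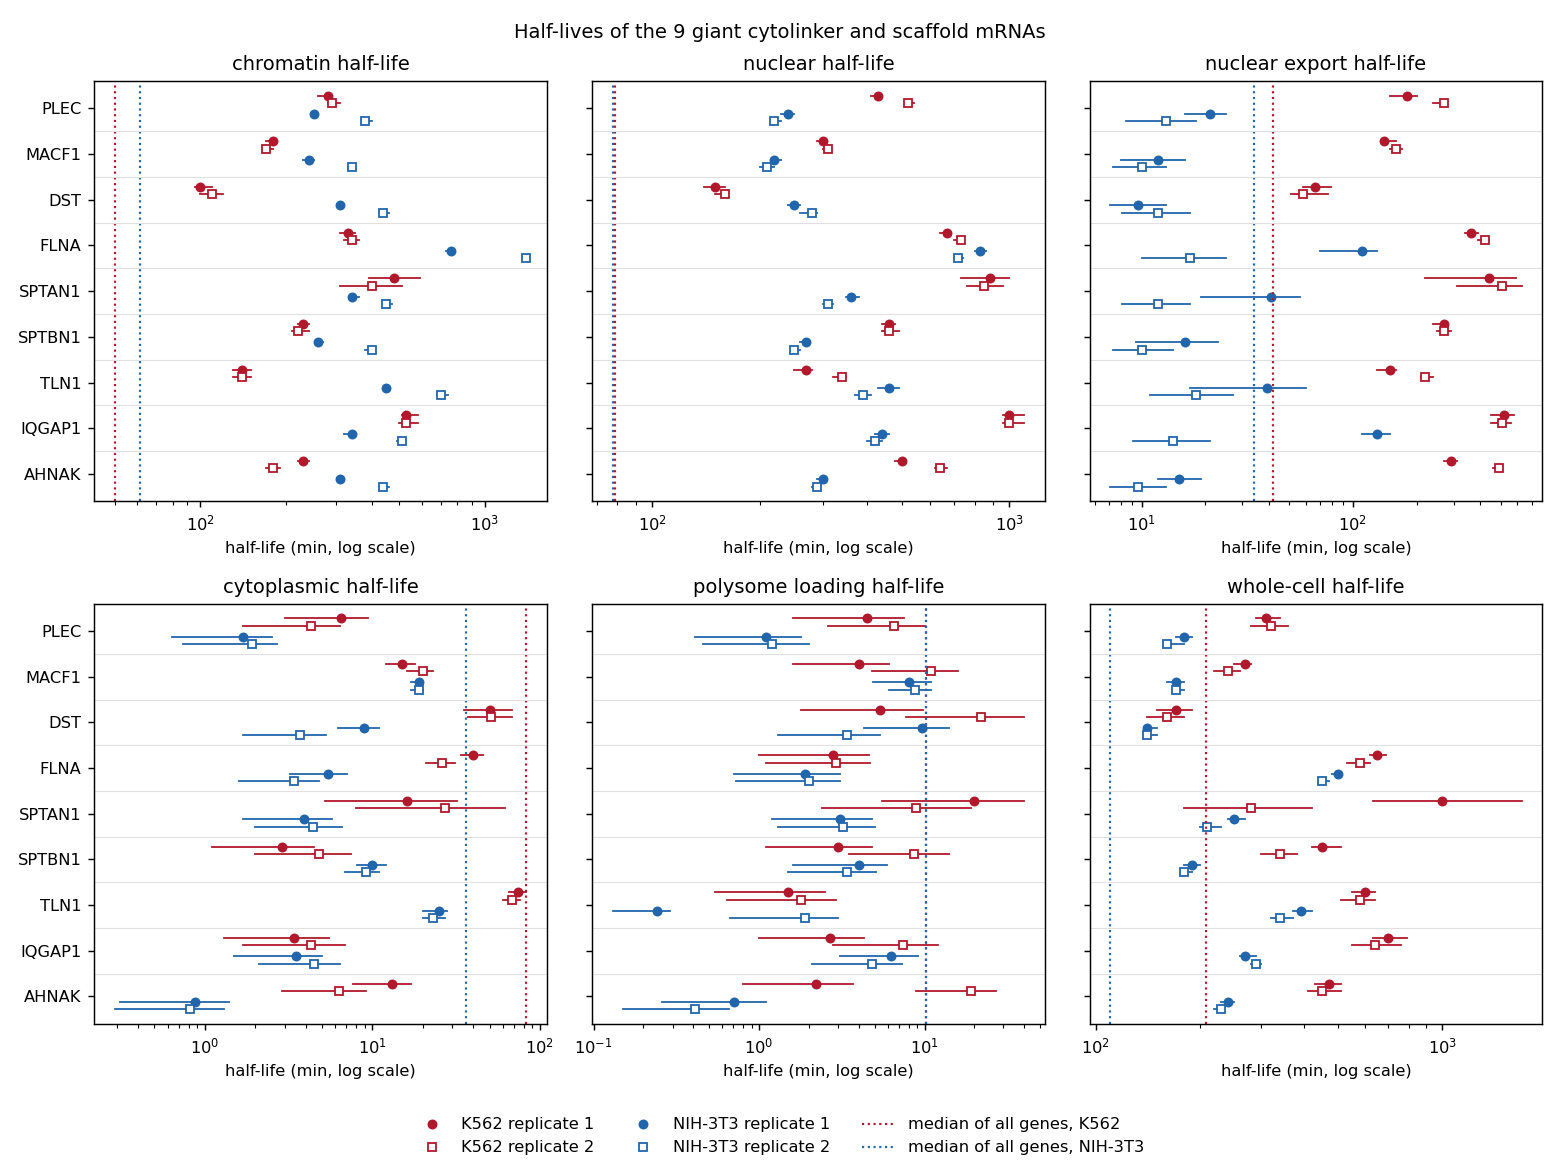
Posterior mode and 95% credible interval (minutes, log scale) of 6 kinds of half-life for 9 genes, with K562 above NIH-3T3 in each row, filled circles for replicate 1, open squares for replicate 2, and dotted lines at the median of all genes in each line. The members lie right of both dotted lines for chromatin and nuclear half-life and left of their own line's for cytoplasmic half-life.

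Among the plakins, PLEC, which encodes plectin, the crosslinker of intermediate filaments, had nuclear half-lives of 430 (410 to 440) and 520 minutes (510 to 540) in K562. Its cytoplasmic half-lives in K562 were 6.5 (3 to 9.4) and 4.3 minutes (1.7 to 6.4), so the nuclear value was 66.2 and 121 times the cytoplasmic one. In NIH-3T3, Plec had 240 and 220 nuclear minutes and 1.7 and 1.9 cytoplasmic minutes. MACF1, the crosslinker of actin and microtubules, had 300 and 310 nuclear minutes in K562 and 220 and 210 in NIH-3T3. Its cytoplasmic half-lives were 15 and 20 minutes in K562 and 19 minutes in both NIH-3T3 replicates, so this gene had almost the same cytoplasmic value in both lines. DST, encoding dystonin, had the lowest nuclear half-life of the members in K562, with 150 (140 to 160) and 160 minutes (150 to 160), and 250 and 280 minutes in NIH-3T3. Its cytoplasmic half-life was 50 (35 to 68) and 51 minutes (37 to 68) in K562 and 8.9 (6.2 to 11) and 3.7 minutes (1.7 to 5.3) in NIH-3T3. DST was thus the plakin with the smallest ratio of nuclear to cytoplasmic half-life in K562, 3 and 3.14, while in NIH-3T3 the ratio was 28.1 and 75.7.

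Of the actin crosslinkers, FLNA, encoding filamin A, had 670 and 730 nuclear minutes in K562 and 830 and 720 in NIH-3T3, the highest of the members in NIH-3T3. Its cytoplasmic half-life was 40 (34 to 46) and 26 minutes (21 to 31) in K562 and 5.4 and 3.4 minutes in NIH-3T3. SPTAN1, encoding non-erythroid alpha spectrin, had 880 (730 to 1000) and 850 nuclear minutes (760 to 960) in K562 and 360 and 310 in NIH-3T3. Its K562 intervals were wide: the cytoplasmic modes of 16 and 27 minutes had intervals of 5.2 to 32 and 8 to 62 minutes, and the whole-cell modes were 1000 (630 to 1700) and 280 minutes (180 to 420). SPTBN1, encoding the beta spectrin that pairs with it, had 460 nuclear minutes in both K562 replicates and 270 and 250 in NIH-3T3. In the cytoplasm its K562 values, 2.9 (1.1 to 4.5) and 4.8 minutes (2 to 7.4), lay below the NIH-3T3 values, 10 (8.1 to 12) and 9.1 minutes (6.9 to 11).

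TLN1, encoding talin-1, had 270 and 340 nuclear minutes in K562 and 460 and 390 in NIH-3T3. In the K562 cytoplasm it had the highest values of the set, 74 (65 to 83) and 68 minutes (60 to 76), where the median of all genes was 86 and 76 minutes, and its 25 and 23 minutes in NIH-3T3 were again the highest of the set. IQGAP1, the scaffold of actin and signalling proteins, had the highest nuclear half-life of the members in K562, 1000 minutes (960 to 1100) in both replicates, and 440 and 420 minutes in NIH-3T3. Its cytoplasmic half-lives were 3.4 and 4.3 minutes in K562 and 3.5 and 4.5 minutes in NIH-3T3. When genes were ordered by the ratio of nuclear to cytoplasmic half-life, IQGAP1 ranked 5 of 12552 genes in K562 replicate 1 and 14 of 12556 in replicate 2. AHNAK, the large scaffold at the plasma membrane, had 500 and 640 nuclear and 13 and 6.3 cytoplasmic minutes in K562. In NIH-3T3, Ahnak had 300 and 290 nuclear minutes and cytoplasmic half-lives of 0.87 (0.31 to 1.4) and 0.81 minutes (0.29 to 1.3). From the shortest, that was rank 7 of 12027 and 4 of 12082 genes, and it lies far below the 15 minutes of the shortest labelling.

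**Figure D2:**
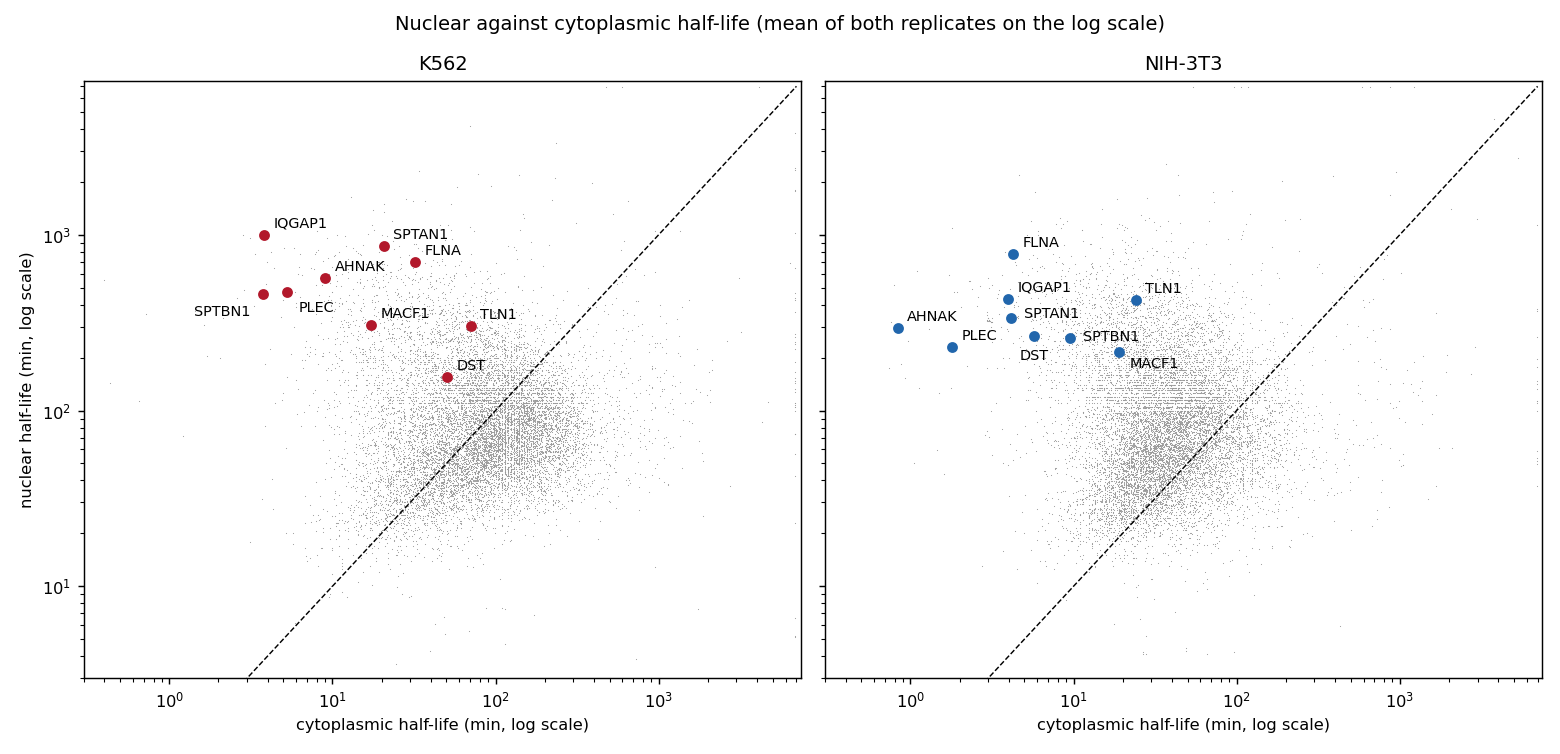
Nuclear half-life against cytoplasmic half-life (minutes, both on log scales; geometric mean of both replicates) of all genes (grey) and the 9 members (coloured) in K562 (left) and NIH-3T3 (right); the dashed line marks equal values. All members lie above the dashed line, TLN1 and DST nearest to it in K562 with ratios of 4.27 and 3.07.

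Chromatin and nuclear half-lives were then set side by side, a comparison chosen after the tables were first examined. In K562 the nuclear half-life exceeded the chromatin half-life for 9 of 9 members, against 51.6% of 12190 genes, and was shorter for 0 members, against 0.779% of genes. IQGAP1, for example, had 1000 nuclear minutes in both replicates and 530 chromatin minutes in both. The order of the members by chromatin half-life in K562 ran from IQGAP1 (530 and 530 minutes), SPTAN1 (480 and 400), FLNA (330 and 340), PLEC (280 and 290), SPTBN1 (230 and 220), AHNAK (230 and 180) and MACF1 (180 and 170) to TLN1 (140 and 140) and DST (100 and 110). Neighbours with overlapping intervals in both replicates were IQGAP1 and SPTAN1.

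In NIH-3T3 the order of the fractions differed between the replicates for 5 of 9 members. No member had a nuclear half-life above the chromatin half-life in both replicates, where 17.9% of 12076 genes did, and 2 (DST and AHNAK) had a shorter one, where 0.571% of genes did. Dst had 250 and 280 nuclear minutes and 310 and 440 chromatin minutes, and Ahnak 300 and 290 nuclear and 310 and 440 chromatin minutes. Replicate 2 alone put the nuclear below the chromatin mode for 9 of 9 members, against 38.6% of 12302 genes. Replicate 1 did so for 4 of 9, against 10.1% of 12307 genes. Flna had the widest gap, with 720 nuclear and 1400 chromatin minutes in replicate 2, and 830 nuclear and 760 chromatin minutes in replicate 1.

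The export half-life is the time for RNA released from chromatin to leave the nucleus, in the authors' model without nuclear decay. By its label it is derived from nuclear residence, so it is not independent of the nuclear minus chromatin difference. It moved with that difference, a relation that is partly built in. In K562 the export half-life of the members lay 16 to 50 minutes above the nuclear minus chromatin half-life in replicate 1 and 8 to 60 minutes above it in replicate 2. It ran from 66 and 58 minutes for DST, through 150 and 220 for TLN1, 270 and 270 for SPTBN1 and 290 and 490 for AHNAK, to 520 and 510 for IQGAP1. All members but DST were above 100 minutes in both replicates, where the median of all genes was 39 and 47 minutes. In NIH-3T3 replicate 2, where the difference was negative for all members (from -680 to -90 minutes), all export half-lives lay between 9.6 and 18 minutes. In replicate 1, Iqgap1 and Flna, with differences of 100 and 70 minutes, had export half-lives of 130 (110 to 150) and 110 minutes (70 to 130), while their replicate 2 values were 14 (9.1 to 21) and 17 minutes (10 to 25). The tables hold a second export estimate, which per the file headers compares the chromatin and nuclear posterior distributions, and it was examined after the first. It ran from 49 to 490 minutes over the members in K562 replicate 1 and from 45 to 480 minutes in replicate 2, and the SPTAN1 modes lay outside their own intervals in both. In NIH-3T3 replicate 2 it stood at its floor of 6.9e-05 minutes for 9 of 9 members and for 38.3% of 12370 genes, and in replicate 1 for 5 of 9 members and 9.22% of 12379 genes. In replicate 1 it was 100 minutes for Iqgap1, 68 for Flna, 18 for Sptan1 and 4.3 for Plec. Of these 4 values only that of Iqgap1 lay inside its own interval. No fold or test is given for this estimate, and the part of the order of the nuclear and chromatin values in the export values was not tested.

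**Figure D3:**
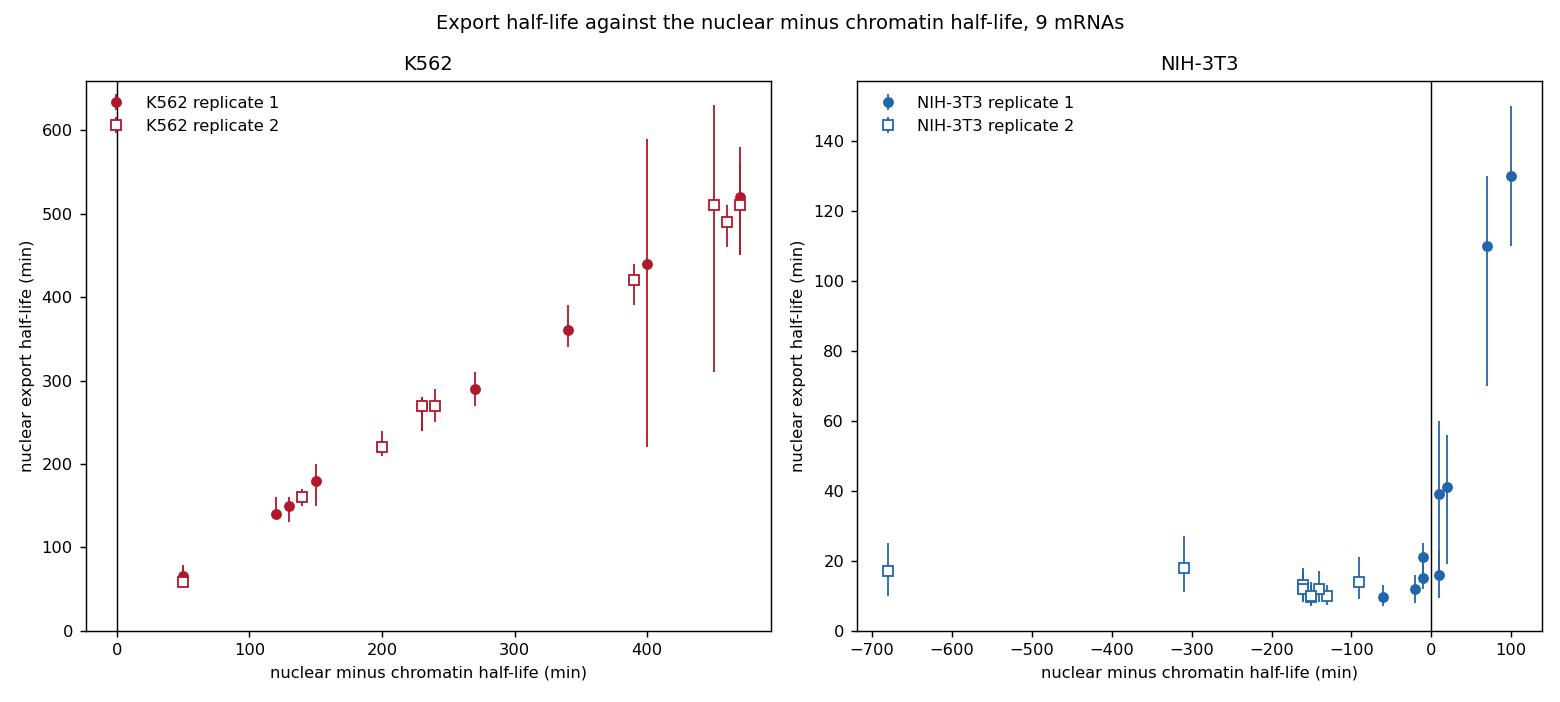
Nuclear export half-life with its 95% credible interval against the nuclear minus chromatin half-life (minutes, linear scales that differ between panels) of the 9 members in K562 (left) and NIH-3T3 (right), replicate 1 as filled circles and replicate 2 as open squares. In K562 all differences are 50 minutes or more and export half-life rises with them, a relation partly built into the export value. In NIH-3T3 replicate 2 all differences are below 0 and all export half-lives are at or below 18 minutes.

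Chromatin half-life exceeded export half-life, with intervals apart in both replicates, for 1 of 9 members in K562 (DST, 100 and 110 chromatin against 66 and 58 export minutes) and for 26.9% of 12195 genes. It was the shorter one for 1 member (AHNAK, 230 and 180 against 290 and 490 minutes) and for 19.7% of genes. Without replicate 2 the longer count was 3 and without replicate 1 the shorter count was 4. In NIH-3T3 the chromatin half-life was longer for 9 of 9 members and for 29.8% of 12149 genes, and shorter for 0 members and 1.56% of genes.

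Polysome loading half-lives, those of cytoplasmic RNA not yet on ribosomes, were short and loosely determined. The members' median was 3 and 8.6 minutes in K562, against 8 and 14 over all genes, and 3.1 and 3.2 minutes in NIH-3T3, against 11 and 10. Only 5 of 18 member intervals in K562 and 10 of 18 in NIH-3T3 spanned 4-fold or less. AHNAK differed most between replicates in K562, with 2.2 (0.8 to 3.7) and 19 minutes (8.9 to 27), and Tln1 in NIH-3T3, with 0.24 (0.13 to 0.29) and 1.9 minutes (0.67 to 3). Cytoplasmic half-life exceeded polysome loading half-life for 2 of 9 members in K562 (FLNA and TLN1), against 55.9% of 11099 genes, and was shorter for 0, against 0.243%; without replicate 2 it was longer for 5. In NIH-3T3 it did for 3 of 9 (Macf1, Tln1 and Sptbn1), against 46.8% of 11063 genes, and was shorter for 0, against 0.515%. For the other members the intervals of these short times overlapped in at least 1 replicate.

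The whole-cell half-life was not above the nuclear one for most members, a comparison also chosen after the tables were first examined. It was longer for 1 of 9 members in K562 (TLN1, 600 and 580 whole-cell against 270 and 340 nuclear minutes), against 69.9% of 11647 genes, and shorter for 3, against 0.266%. The 3 were PLEC (310 and 320 whole-cell against 430 and 520 nuclear minutes), MACF1 (270 and 240 against 300 and 310) and IQGAP1 (700 and 640 against 1000 and 1000). Replicate 2 alone placed 7 of 9 on that side. In NIH-3T3 the whole-cell value was shorter for 8 of 9 members, all but Tln1, against 2.02% of 11910 genes, and longer for none, against 38.4%. Flna had 500 and 450 whole-cell and 830 and 720 nuclear minutes there, and Dst 140 and 140 against 250 and 280. None of these whole-cell and nuclear modes differed by 2-fold or more in both replicates.

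The authors' own call of nuclear degradation, which comes with Bayes factors for a model with decay in the nucleus over one without it, was given in K562 to 2 of 9 members (PLEC and DST), against 3.25% of 11384 genes assessed. In NIH-3T3 it was given to 2 of the 7 members assessed (Tln1 and Sptan1), against 4.37% of 11636 genes, and Dst and Ahnak have no call. No member was called in both lines. The Bayes factor from 4 compartments was at least 100 in both replicates for each of the 4 called members, while that from 3 compartments was far below 1: 9.6e-08 and 9.2e-05 for PLEC, 3.2e-06 and 7.2e-06 for DST, 6.1e-06 and 4e-07 for Tln1 and 0.00026 and 4.5e-06 for Sptan1. Members without the call in NIH-3T3 were not all low by the first factor. In replicate 1 it was also at least 100 for Flna, Macf1, Sptbn1 and Iqgap1, which are not called, and for Macf1 the factor from 3 compartments was 22000. In replicate 2 the factor from 4 compartments has no value for Plec, Flna, Macf1 and Sptbn1 and was 18 for Iqgap1. In K562 it was below 1 in both replicates for all 7 members without the call. A split with the factor from 4 compartments at least 100 and that from 3 compartments below 1, in both replicates, held for 24.9% of called genes in K562 and 10.8% in NIH-3T3. Under the model with degradation, DST had nuclear degradation half-lives of 200 (140 to 290) and 290 minutes (200 to 740). PLEC stood at the upper bound of the fit, 6900 minutes (4000 to 6900), in replicate 1. Per the file headers, the export half-lives given above apply to genes without this call, so those of PLEC and DST in K562 and of Tln1 and Sptan1 in NIH-3T3 fall outside that scope. In the model with degradation, the export half-life was 96 minutes (80 to 120) for PLEC in replicate 1, and 240 (120 to 1300) and 96 minutes (55 to 170) for DST. In NIH-3T3 it was 5.9 (3.4 to 8.5) and 1.6 minutes (0.52 to 2.8) for Tln1 and 4.1 (1.3 to 5.9) and 1.9 minutes (0.76 to 3.4) for Sptan1. In these NIH-3T3 fits the half-life of release from chromatin stood at the upper bound of 6900 minutes in both replicates for both genes. Its intervals were 430 to 6900 and 900 to 6900 minutes for Tln1, and 350 to 5800 and 430 to 5800 minutes for Sptan1.

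Between the lines, the half-lives of each gene were compared with limma on log2 modes, 2 K562 tables against 2 NIH-3T3 tables, with Benjamini-Hochberg adjustment over all genes tested. The labels do not say that replicates are separate cultures, so the p-values measure the spread between these tables. Differences between the lines were among the results known when the members were chosen, so these p-values are not independent evidence about the set. Species, cell type and line cannot be told apart. The median log2 difference of all genes, K562 minus NIH-3T3, was 1.11 for cytoplasmic, 0.84 for whole-cell and 0.33 for export half-life, 0 for the nuclear one, -0.14 for polysome loading and -0.35 on chromatin. Tables centred on their medians give the differences relative to those shifts. Leaving out 1 of the 4 tables lowered most counts of calls, as given beside each.

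Over the members, the median log2 difference between the lines was 3.74 for export half-life, where that for cytoplasmic half-life was 1.56, and DST differed more in the cytoplasm (3.14) than in export (2.53). It was longer in K562 for 7 of 9 members, against 4.36% of 9135 genes, and shorter for 0, against 4.6% (limma; at unadjusted p under 0.05, 9 were longer and 0 shorter). AHNAK averaged 377 minutes in K562 and 12 minutes in NIH-3T3 (geometric means, n = 2 each), a log2 difference of 4.97 ± 0.5 (SE; limma adjusted p = 0.0278). SPTBN1 averaged 270 minutes in K562 and 12.6 in NIH-3T3 (4.42 ± 0.45, limma adjusted p = 0.0278), and SPTAN1 474 minutes in K562 and 22.2 in NIH-3T3 (4.42 ± 0.66, limma adjusted p = 0.0316). PLEC and MACF1 differed by 3.74 and 3.77, TLN1 by 2.78 and DST by 2.53, all called. FLNA (3.17 ± 0.89, limma adjusted p = 0.0756) and IQGAP1 (3.59 ± 1.03, limma adjusted p = 0.0784) were not called, and their NIH-3T3 replicates differed most. Centred on the table medians, 9 of 9 were longer. Leaving out any 1 of the 4 tables left 0 calls among the members. The nuclear minus chromatin differences, positive for 9 of 9 members in both K562 replicates and negative for 4 and 9 of 9 in NIH-3T3 replicates 1 and 2, stand beside these values, as does the second estimate at its floor. PLEC and DST in K562 and TLN1 and SPTAN1 in NIH-3T3 carry the call of nuclear degradation.

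**Figure D4:**
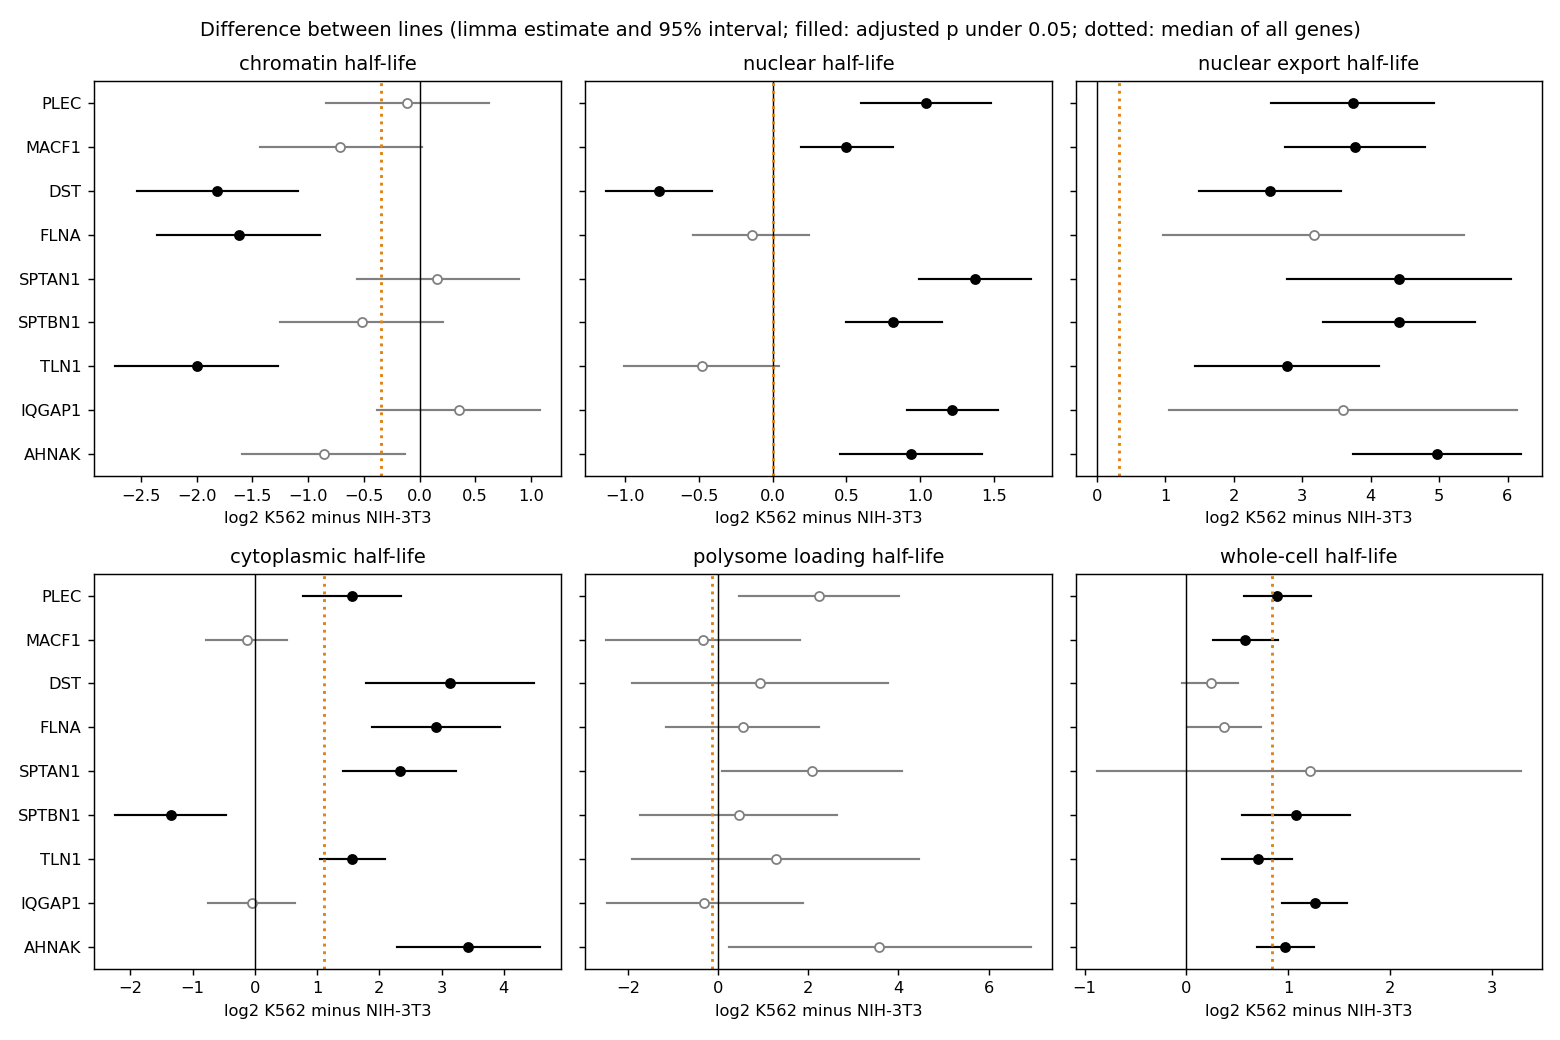
Difference of log2 half-life between K562 and NIH-3T3 (limma estimate and 95% interval) for 9 genes and 6 kinds of half-life, filled where the adjusted p is under 0.05, with the median difference of all genes as a dotted line. All 9 export estimates lie right of the dotted line at 0.33; whole-cell estimates lie around the dotted line at 0.84, which is itself above 0.

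Nuclear half-life was longer in K562 for 6 of 9 members, against 19.9% of 9466 genes, and shorter for 1 (DST), against 20.0%. SPTAN1 averaged 865 minutes in K562 and 334 in NIH-3T3 (log2 difference 1.37 ± 0.13, limma adjusted p = 0.0116), IQGAP1 1000 minutes in K562 and 430 in NIH-3T3 (1.22 ± 0.11, limma adjusted p = 0.0109), and PLEC 473 minutes in K562 and 230 in NIH-3T3 (1.04 ± 0.15, limma adjusted p = 0.0181). AHNAK (0.94), SPTBN1 (0.82) and MACF1 (0.5) were called in the same direction. DST averaged 155 minutes in K562 and 265 in NIH-3T3 (-0.77 ± 0.13, limma adjusted p = 0.0214). That call was lost with posterior means and with the replicate number as a block. For FLNA (-0.14) and TLN1 (-0.48) no call was made. Without any 1 of the 4 tables, 0 members were called either way.

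On chromatin, 3 of 9 members had a shorter half-life in K562, against 28.6% of 9380 genes, and 0 a longer one, against 10.0% (limma; at unadjusted p under 0.05, 4 were shorter and 0 longer). A share of 3 in 9 is near that of all genes. TLN1 averaged 140 minutes in K562 and 561 in NIH-3T3 (-2 ± 0.37, limma adjusted p = 9.11e-06). DST averaged 105 minutes in K562 and 369 in NIH-3T3 (-1.82 ± 0.36, limma adjusted p = 4.6e-05), and FLNA 335 minutes in K562 and 1030 in NIH-3T3 (-1.62 ± 0.37, limma adjusted p = 0.000287). For FLNA the direction turned with posterior means (0.39), which lay outside their own intervals for 2 K562 and 1 NIH-3T3 value of this gene. With the replicate number as a block, 5 members were called shorter. IQGAP1, SPTAN1 and PLEC had estimates of 0.35, 0.16 and -0.11 with intervals of the difference from -0.38 to 1.08, from -0.56 to 0.89 and from -0.84 to 0.62. With tables centred, 1 member was called longer in K562. Without NIH-3T3 replicate 1 or replicate 2 no member was called shorter, and without K562 replicate 1 only 1 was.

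Cytoplasmic half-life was longer in K562 for 6 of 9 members, against 53.4% of 9087 genes, and shorter for 1, against 2.08%. AHNAK averaged 9.05 minutes in K562 and 0.839 in NIH-3T3 (3.43 ± 0.41, limma adjusted p = 0.00781). DST averaged 50.5 minutes in K562 and 5.74 in NIH-3T3 (3.14 ± 0.48, limma adjusted p = 0.0112) and FLNA 32.2 minutes in K562 and 4.28 in NIH-3T3 (2.91 ± 0.37, limma adjusted p = 0.00826). SPTAN1 (2.33), PLEC (1.56) and TLN1 (1.56) were also called longer. SPTBN1 was the one called shorter, with 3.73 minutes in K562 and 9.54 in NIH-3T3 (-1.35 ± 0.32, limma adjusted p = 0.0286), and its K562 interval in replicate 1 spanned 4.09-fold. MACF1 (-0.13) and IQGAP1 (-0.05) had intervals of the difference from -0.78 to 0.51 and from -0.75 to 0.65. Relative to the median of all genes, 2 members were longer and 2 shorter in K562. Without K562 replicate 1, or without either NIH-3T3 replicate, 0 members were called.

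Whole-cell half-life was longer in K562 for 6 of 9 members, against 60.2% of 8913 genes, and shorter for 0, against 5.06% (limma; at unadjusted p under 0.05, 7 were longer and 0 shorter). The members' share was close to that of all genes. Their median log2 difference was 0.89 and that of all genes 0.84, and with tables centred on their medians 0 were longer and 2 shorter. IQGAP1 averaged 669 minutes in K562 and 280 in NIH-3T3 (1.26 ± 0.11, limma adjusted p = 0.00397), and DST 165 minutes in K562 and 140 in NIH-3T3 (0.24 ± 0.09, limma adjusted p = 0.102). For SPTAN1 the replicates in K562 were 3.57-fold apart and the interval of the difference ran from -0.88 to 3.29. Without either NIH-3T3 replicate 0 members were called. Polysome loading gave 0 calls among the members in either direction with limma, against 0.443% longer and 0.395% shorter of 8358 genes, and at an unadjusted p under 0.05 it gave 3 longer (PLEC, AHNAK and SPTAN1) and 0 shorter.

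The ratios of paired half-lives were compared in the same way, which tests whether the ratio differed between lines. Export half-life is derived from nuclear residence, so its ratio to chromatin half-life is not one of 2 separately measured steps. The ratio of chromatin to export half-life was lower in K562 for 8 of 9 members, all but IQGAP1, against 5.21% of 9135 genes, and higher for 0, against 1.92% (at unadjusted p under 0.05, 9 lower and 0 higher). AHNAK had a ratio of 0.54 in K562 and 30.8 in NIH-3T3 (log2 difference -5.83 ± 0.81, limma adjusted p = 0.00453). IQGAP1 had 1.03 in K562 and 9.76 in NIH-3T3 (-3.25 ± 1.04, limma adjusted p = 0.0656). The median of all genes was -0.66. Without NIH-3T3 replicate 2 the count was 0, and without K562 replicate 1 or 2 it was 4 or 1.

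The ratio of nuclear to cytoplasmic half-life divided the members. It was lower in K562 for 4 of 9, against 38.4% of 9087 genes, and higher for 2, against 4.02%. DST had 3.07 in K562 and 46.1 in NIH-3T3 (-3.91 ± 0.56, limma adjusted p = 0.0107), and FLNA 21.7 in K562 and 180 in NIH-3T3 (-3.06 ± 0.42, limma adjusted p = 0.0103). AHNAK (-2.49) and TLN1 (-2.05) were lower too. SPTBN1 had 123 in K562 and 27.2 in NIH-3T3 (2.18 ± 0.39, limma adjusted p = 0.0157), and IQGAP1 262 in K562 and 108 in NIH-3T3 (1.27 ± 0.36, limma adjusted p = 0.0453). Both rest on K562 cytoplasmic intervals wider than 4-fold in at least 1 replicate, and neither could be tested where intervals of at most 4-fold were required. With the replicate block or with posterior means 1 member was called higher. Relative to the median of all genes (-1.08), 3 members were higher and 2 lower in K562. Without K562 replicate 1, or without either NIH-3T3 replicate, 0 members were called, and without K562 replicate 2 there were 3 lower and 1 higher.

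Other sets of genes were set beside the members, the first of them chosen by protein length. In K562, 769 other genes encode a protein of at least 1657 amino acids, the length of IQGAP1. The median chromatin half-life was 230 and 220 minutes for the members and 76 and 83 minutes for these genes. Nuclear exceeded cytoplasmic half-life for 9 of 9 members and for 36.3% of the 524 such genes with values.

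Of a list of 39 relatives and partners in the cytoskeleton, 15 of 32 with values in K562 had a longer nuclear than cytoplasmic half-life in K562 and 28 of 28 did in NIH-3T3. The largest ratios in K562 were those of DYNC1H1, the dynein heavy chain (530 and 670 nuclear against 13 and 6.9 cytoplasmic minutes), and VCL, encoding vinculin (510 and 510 against 19 and 16). MAP4 and ILK had the smallest, at 0.471 and 0.609. The ratio in NIH-3T3 was largest for Flnc (72.7) and Myh9 (41.3). Export half-life was called longer in K562 for 7 of 25 and shorter for 0 of this list, and its median log2 difference was 1.79.

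Paralogs of the members were partly alike. FLNC, like FLNA a filamin gene, had 340 and 440 nuclear and 22 and 15 cytoplasmic minutes in K562. SPTBN1 had 460 nuclear minutes in both K562 replicates and 2.9 and 4.8 cytoplasmic minutes, and SPTB, encoding the beta spectrin of red cells, had 270 and 350 nuclear and 69 and 47 cytoplasmic minutes there. EPPK1, a plakin built of repeats, had 270 and 300 nuclear and 23 and 50 cytoplasmic minutes in K562. IQGAP3 had 340 and 450 nuclear and 94 and 38 cytoplasmic minutes there, and IQGAP2 530 and 380 nuclear and 14 and 50 cytoplasmic minutes. Whether reads of such paralogs were split between genes was not tested, and how the authors assigned them is not given in the sources used here.

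Large proteins with other destinations gave the following counts. Of a list of 29 large ER-targeted proteins, 16 of 21 with values had a longer nuclear than cytoplasmic half-life in K562 and 22 of 23 in NIH-3T3, with HSPG2, encoding the matrix proteoglycan perlecan, at the largest ratio in both lines (57.9 in K562 and 153 in NIH-3T3). Of 26 large cytosolic proteins outside the cytoskeleton, 14 of 25 did in K562 and 22 of 25 in NIH-3T3, and the largest ratio in NIH-3T3 was 16.6 for Vps13c. Of 28 large nuclear proteins, 18 of 28 did in K562 and 25 of 28 in NIH-3T3, with CHD4, a chromatin remodeller, at 170 in K562. The median export half-life in K562 was 270 minutes for the members, 117 for relatives and partners, 116 for large ER-targeted, 64.7 for large cytosolic and 48 minutes for large nuclear proteins. In NIH-3T3 these medians were 16.5, 30.7, 38, 17.2 and 16.1 minutes. The whole-cell median in K562 was 460 minutes for the members, 409 for relatives and partners, 235 for large ER-targeted, 320 for large cytosolic and 165 minutes for large nuclear proteins. The lists differ in their number of genes and no difference between them was tested.

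The genes with the half-life profile nearest to the members' median, over 16 values (chromatin, nuclear, cytoplasmic and whole-cell half-life in the 4 tables) and among 8738 genes, were FLNC, CPD, VCL, ACTN4 and CTSL. Their distances on the log2 scale ran from 1.37 for FLNC to 2.05 for CTSL. The members themselves lay between 2.24 for SPTAN1 and 4.89 for TLN1, so the 5 genes were nearer to the median profile than any member. FLNC, VCL and ACTN4 encode actin-binding proteins, while CPD and CTSL encode a carboxypeptidase and a cathepsin that enter the secretory pathway.

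Gene length and chromatin half-life gave coefficients of opposite sign over the members and over all genes, a difference that was not tested. Spearman's rho between annotated length and chromatin half-life in K562 was -0.46 and -0.45 over the 9 members, and 0.258 and 0.23 over 12510 and 12213 genes. These are correlations across genes, which share libraries and are not replicates, given with no test. The 497 kb DST gene had the lowest chromatin half-life of the members, and the 26.1 kb FLNA gene had 330 and 340 minutes. Protein length and whole-cell half-life gave -0.733 and -0.628 over the members and -0.144 and -0.135 over all genes.

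**Figure D5:**
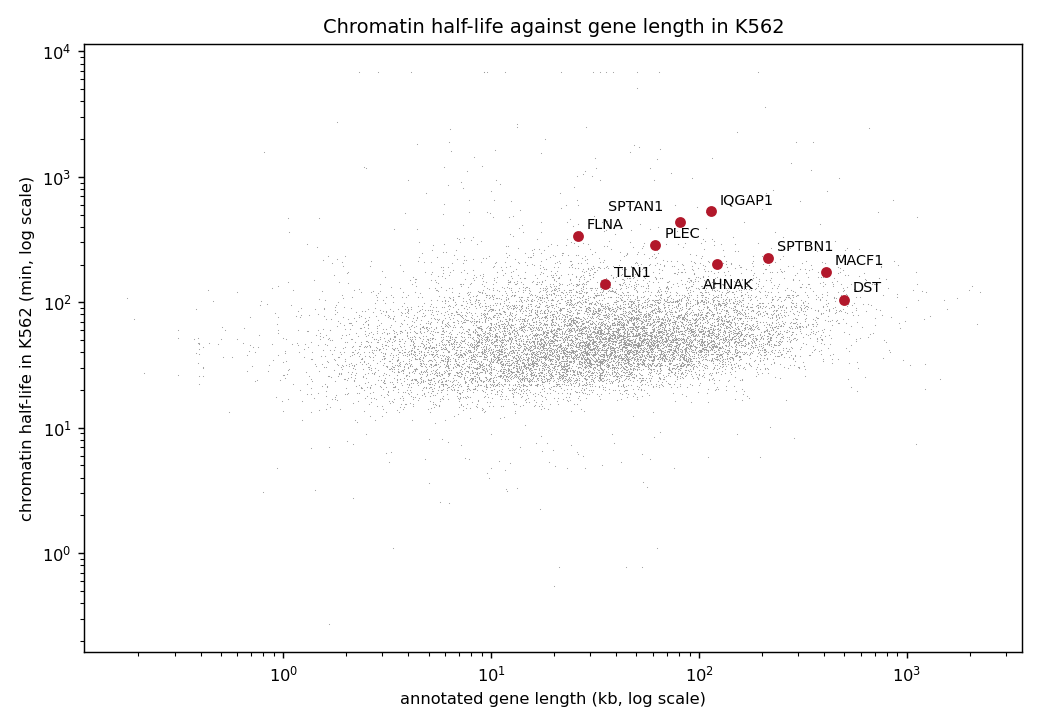
Chromatin half-life in K562 (minutes, log scale; geometric mean of both replicates) against the annotated gene length (kb, log scale) for all coding genes (grey) and the 9 members (red). The members lie in the upper part of the cloud at all lengths, with FLNA the shortest at 26.1 kb and DST the longest at 497 kb.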

How the data were processed

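RNA from fractions of untreated K562 and NIH-3T3 cells was converted by TimeLapse chemistry and sequenced from a stranded total RNA library, per the labels' protocols. The submitters' processing notes name cutadapt 2.5, STAR 2.7.0a and the hg38 and mm10 builds. The deposited half-lives (unit: other) are minutes, given by the authors as posterior mode, mean and 95% credible interval per replicate table, with 2 significant digits and an upper bound of 6900. The deposited Bayes factors (unit: other) weigh a fit that allows decay in the nucleus over a fit that does not. Filters and priors of the fit are not given in the sources used here, and depth is unknown.

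Genes were paired across species by symbol, ignoring case (14100 shared). Within a line, one half-life was counted as longer than another where intervals were apart the same way in both replicates. Lines were compared with limma 3.58.1 (R 4.3.3) on log2 modes, two-sided, with no pseudocount, filter or centring, at an adjusted p under 0.05. The procedure was also run on simulated tables. These held no shift common to all genes of a table, so they do not show how such shifts act. Modes were used because 0 of 216 member modes and 14 of 216 member means lay outside their interval. Over all genes the order was the reverse, with 1.52% of modes and 0.849% of means outside. Gene features came from GENCODE release 29.

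The members and gene lists were chosen with earlier results of these data known. Genes named are the members, their paralogs, at most 2 genes at each end of a list (with intervals of at most 4-fold) and the 5 nearest in profile; a few of these genes are not reported here. Alternatives were posterior means, narrow intervals, centring, a replicate block, leaving out each table and a 2-fold rule. No protein or gene sequence is printed.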

Additional observations from a re-analysis of the deposited data

Results flagged for a closer look

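The ratio of 2 half-lives was called different between K562 and NIH-3T3 for these genes, by a limma test of the difference itself at an adjusted p under 0.05. For the log2 ratio of nuclear to cytoplasmic half-life, K562 minus NIH-3T3, the values were -3.06 for FLNA, -3.91 for DST, -2.49 for AHNAK and -2.05 for TLN1, and 2.18 for SPTBN1 and 1.27 for IQGAP1. The median of all genes was -1.08. The ratio was called lower for 4 of 9 members and 38.4% of 9087 genes, a share near that of all genes, and higher for 2 of 9 members and 4.02% of genes.

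For the log2 ratio of chromatin to nuclear export half-life, K562 minus NIH-3T3, they were -3.85 for PLEC, -4.79 for FLNA, -4.48 for MACF1, -4.34 for DST, -5.83 for AHNAK, -4.78 for TLN1, -4.25 for SPTAN1 and -4.94 for SPTBN1. The median of all genes was -0.66, and 8 of 9 members and 5.21% of 9135 genes were called lower. Beside these values stand the chromatin modes in NIH-3T3 replicate 2, which exceeded the nuclear modes for 9 of 9 members and for 38.6% of genes. Their part in the ratios was not tested.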

How the results depend on the processing

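Nuclear above cytoplasmic half-life in both lines, and chromatin above export half-life in NIH-3T3, held for 9 of 9 members with a 2-fold difference of modes or of means and without either replicate. The other counts within a line moved. With modes at least 2-fold apart, chromatin above export in K562 held for 0 members and the reverse for 0. Nuclear above chromatin in K562 then held for 3, and the reverse in NIH-3T3 for 0. Whole-cell above nuclear in K562 held for 0, the reverse for 0, and the reverse in NIH-3T3 for 0. With means at least 2-fold apart, the reverse of chromatin above export in K562 held for 0, cytoplasmic above polysome loading in K562 for 4, nuclear above chromatin in K562 for 2, its reverse in NIH-3T3 for 0, whole-cell above nuclear in K562 for 0, its reverse there for 0 and in NIH-3T3 for 0. Leaving out 1 replicate gave 1 to 3 members for chromatin above export in K562 and 1 to 4 for its reverse, 2 to 5 for cytoplasmic above polysome loading in K562, 0 to 2 for nuclear above chromatin in NIH-3T3 and 2 to 9 for its reverse, and 3 to 7 for whole-cell below nuclear in K562.

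Between lines, leaving out 1 of the 4 tables gave 0 to 2 members with shorter chromatin half-life in K562, 0 with longer and 0 with shorter nuclear half-life, 0 with longer export half-life, 0 to 4 with longer and 0 to 1 with shorter cytoplasmic half-life, 0 to 6 with longer whole-cell half-life, 0 to 1 with higher and 0 to 3 with lower nuclear to cytoplasmic ratio, and 0 to 9 with lower chromatin to export ratio. The lone table left in a line was assumed to vary like the tables of the other line. Without 1 table most calls for single genes were lost, and without NIH-3T3 replicate 2 all of them were. Of 72 values for single genes, 2 to 4 changed direction. Values without a call in the main fit, such as those of polysome loading, had none to lose.

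With each table centred on its median, 1 member had a longer chromatin half-life in K562, 2 a longer and 2 a shorter cytoplasmic one, 0 a longer and 2 a shorter whole-cell one, and 2 a lower nuclear to cytoplasmic ratio. With intervals of at most 4-fold, 0 had a shorter cytoplasmic half-life and 0 a higher nuclear to cytoplasmic ratio. With posterior means, 0 had a shorter nuclear half-life and 1 a higher nuclear to cytoplasmic ratio. The replicate block gave 5 with a shorter chromatin half-life, 0 with a shorter nuclear one and 1 with a higher nuclear to cytoplasmic ratio. Same-numbered tables did not deviate together gene by gene, with correlations over all genes from -0.0514 to 0.025 for the 8 quantities. Such a correlation does not see a shift common to all genes of a table, so whether same-numbered tables share a batch is not known.

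Some log2 differences, K562 minus NIH-3T3, changed sign. Centring gave 0.25 for chromatin half-life of PLEC, -0.07, -0.59, -0.38, -0.73 and -0.27 for whole-cell half-life of PLEC, FLNA, MACF1, DST and TLN1, and 0.65 and 0.21 for the nuclear to cytoplasmic ratio of PLEC and SPTAN1. Posterior means gave 0.39 and -2.48 for chromatin half-life of FLNA and SPTAN1, 0.67 for nuclear half-life of FLNA, and -0.68, -0.74 and -0.54 for whole-cell half-life of FLNA, SPTBN1 and IQGAP1, and each of these genes had a mean outside its interval for that half-life. Leaving out 1 table gave -0.42 to 0.19 for chromatin half-life of PLEC and -0.04 to 0.37 for that of SPTAN1, -0.34 to 0.07 for cytoplasmic half-life of MACF1 and -0.23 to 0.13 for that of IQGAP1. For polysome loading it gave -1.06 to 0.40 for MACF1, -0.08 to 1.95 for DST, -0.21 to 2.78 for TLN1, -0.30 to 1.22 for SPTBN1 and -1.03 to 0.43 for IQGAP1. The cause of these changes of sign was not tested, also where means lay outside their intervals.

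With 2 tables per line, a gene's own spread is poorly known, and the number of reads behind a value is unknown. Half-lives far below the shortest labelling or far above the longest rest on the authors' model, and polysome loading intervals spanned at most 4-fold for 5 of 18 member values in K562 and 10 of 18 in NIH-3T3.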
